A study of Homo sapiens with 4 samples.

Results

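The response of BV-173 to STI571 was read from 2 of the study's 4 arrays: BV-173 cells cultured without the drug, and BV-173 cells exposed to 10 μmol/l STI571 for 16 h. BV-173 is an established human leukemia line of B cell precursors that carries the Philadelphia chromosome, and STI571 (imatinib) inhibits the BCR-ABL1 kinase which that chromosome encodes. The other arrays hold SUP-B15, another B cell precursor line with the Philadelphia chromosome, grown with and without the same dose for the same time. Each of the 4 groups had 1 array, and each line stands for 1 culture of 1 leukemia. With no replicates there is no spread between samples and no test, so every comparison below is a size without an error. All non-control probe sets with 1 gene symbol were members: 19064 of 22277 probe sets, for 11963 genes. Of these, 10662 probe sets for 7240 genes reached the 50th percentile of their array on at least 1 of both BV-173 arrays and were compared. A dim gene that passed only through the array where it was high had to differ between the arrays.

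BCR-ABL1 is a constantly active tyrosine kinase. It feeds the RAS-ERK cascade, the transcription factor STAT5, and the PI3K-AKT pathway, which keeps FOXO transcription factors out of the nucleus. In normal B cell precursors, the pre-B cell receptor and the interleukin-7 receptor send signals through the same routes, and attenuation of these signals accompanies the arrest of division and the rearrangement of light chain genes. Many genes of these pathways are feedback inhibitors, whose RNA follows the activity of the pathway that they restrain.

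Values are signal intensities on the scale of the deposited table, given as untreated and then treated. A change is the difference of log2(signal + 24.5), treated minus untreated, where 24.5 is the 25th percentile of all deposited signals. The added value makes the change of a dim gene smaller than its ratio. Where a gene had several probe sets that passed the filter, the one with the highest mean log2 signal stood for the gene, and the others are given as further readings of the same RNA, not as replicates. Signals of different probe sets are not on a common scale and are not compared with each other.

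Both BV-173 arrays had a 2%-trimmed mean of 500.2, so they had been scaled to a common target. The hybridisation controls, 18 probe sets, changed by −0.19 to 0.14, and the 3' to 5' ratio of GAPDH was 1.16 and then 1.2. Mean signal of 18S ribosomal RNA was higher on the treated array (1597 and 2817; 1577 and 1513 in SUP-B15), and its part in the results was not tested. Of the 17 matched markers of B cell precursors, 15 passed the filter, with signals of 2687 and 2974 for PAX5, although CD34 (11.8 and 103.9) and MME (31.3 and 81.4) were too dim to be used. Of the T and NK markers 5 of 17 passed, of the myeloid markers 3 of 17 and of the erythroid and megakaryocyte markers 4 of 14. Their summed signals were 885 and 1100, 697 and 692, and 717 and 1067. No marker of these types was listed at 0, and CD3D (20.2 and 15), MPO (8.3 and 59.3), CD14 (3.8 and 4.3) and GATA1 (16.2 and 48.4) lay below the 50th percentile of their arrays. The arrays measured RNA from whole cultures, in which fewer cells of a type and less RNA per cell cannot be told apart.

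After treatment, 444 of the 7240 genes were at least 2-fold higher (6.13%) and 303 at least 2-fold lower (4.19%). At 4-fold or more there were 88 and 61. Counts of list members past 2-fold, given below, stand beside these shares of 6.13% higher and 4.19% lower. The middle 50% of genes changed by −0.26 to 0.37, with a median of 0.04, and the log2 signals of both arrays correlated with r = 0.939 across genes, which are not independent replicates. Setting both arrays to a common median moved the median change by −0.14, and the share of higher genes among those past 2-fold went from 59.4% to 49.9% (53.4% after quantile normalization). The directions below are therefore relative to a centre that the scaling sets to within about this shift.

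**Figure D1:**
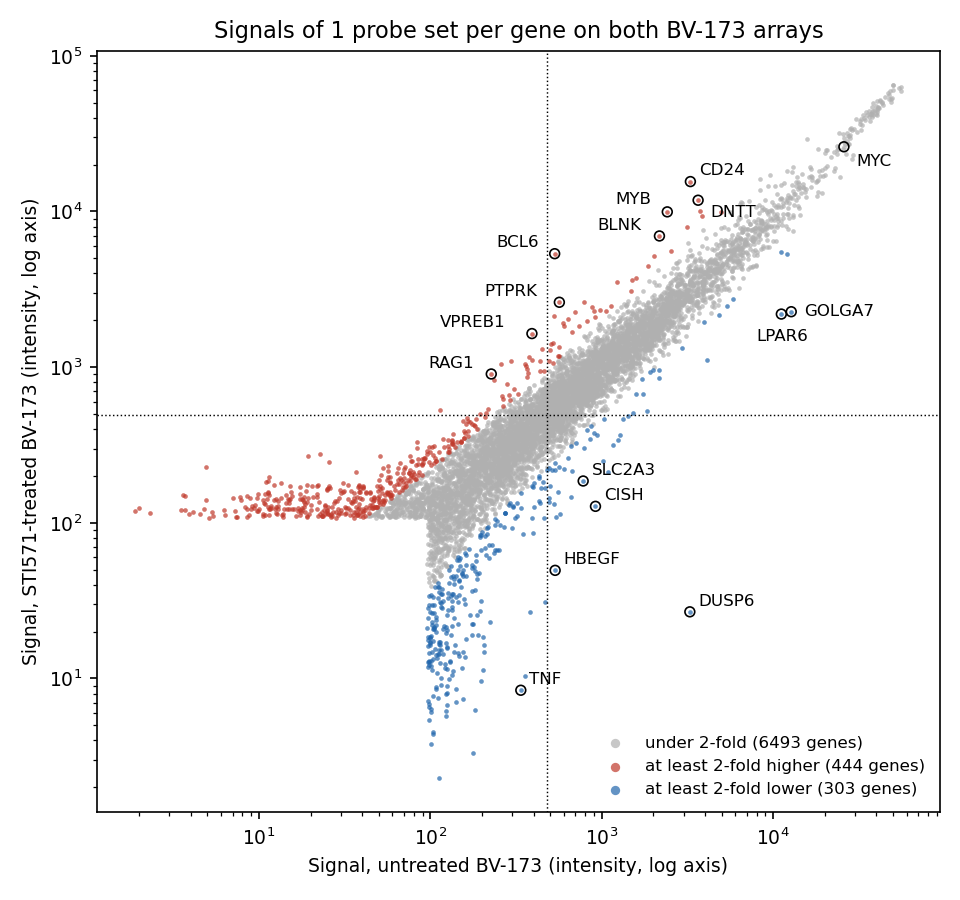
Signal intensity of 1 probe set per gene in untreated BV-173 (x axis) and STI571-treated BV-173 (y axis), both on log axes, for 7240 genes. Red points are the 444 genes at least 2-fold higher after treatment and blue points the 303 at least 2-fold lower, with named genes circled; dotted lines mark each array's 75th percentile (481.8 and 490.8). The straight lower and left edges of the cloud are the filter at the 50th percentile, and 623 of the 747 coloured points are genes under the 75th percentile on both arrays.

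Most of the genes past 2-fold were dim, and how well their changes were repeated by a second probe set or in the second cell line depended on brightness. Genes whose brighter array lay between the 50th and 75th percentile numbered 3352, and 623 of them (18.6%) were past 2-fold, 376 higher and 247 lower. A second probe set moved the same way in 33 of 44 of these genes (75%). The sign in SUP-B15 was the same for 50.9% of them, and of those past 2-fold in both lines 80 went the same way and 80 the opposite way. From the 75th percentile up, 68 of 3888 genes were at least 2-fold higher (1.75%) and 56 at least 2-fold lower (1.44%). Here the second probe set moved the same way in 49 of 54 genes (90.7%), the sign in SUP-B15 was the same for 83.1%, and 28 genes were past 2-fold the same way in both lines against 0 the opposite way. Genes under 2-fold at this brightness had the same sign in the second probe set in 70.2% and in SUP-B15 in 59.0%. The 124 genes past 2-fold at this brightness are called bright changed genes below. A gene near the 75th percentile can be bright through its higher array alone, as BACH2 (113.5 and 533.3) was, so the counts of bright genes are a description too.

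**Figure D2:**
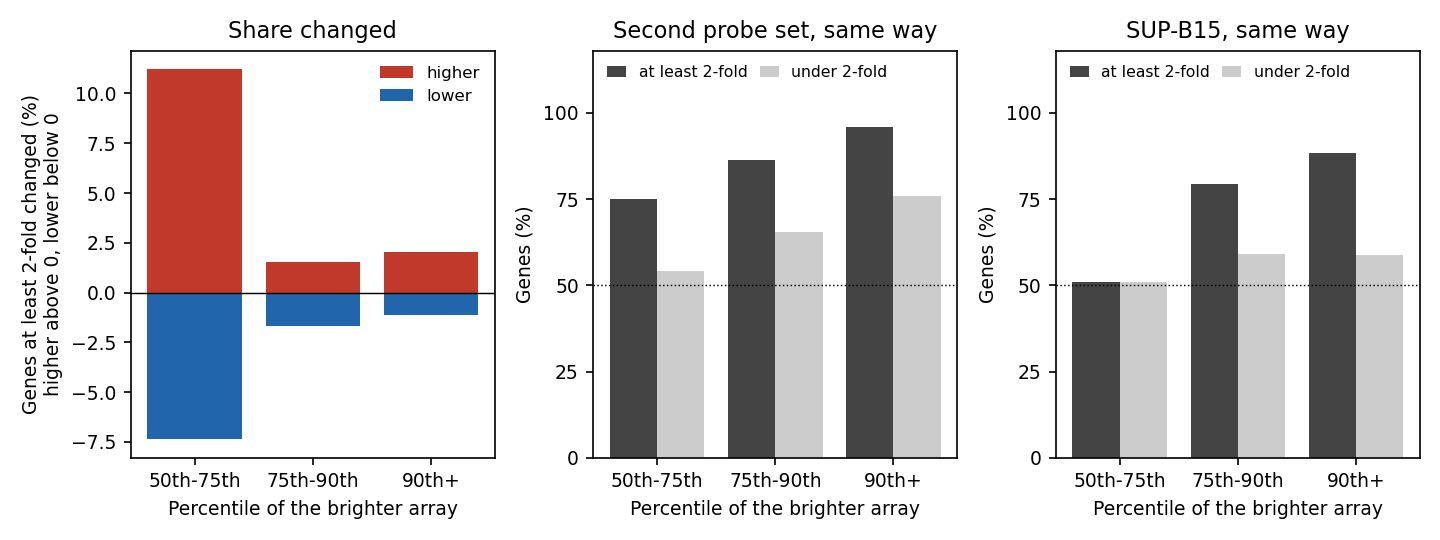
Genes grouped by the percentile of their signal on the brighter BV-173 array (50th to 75th, 75th to 90th, 90th and above). The left panel shows the percent of genes at least 2-fold higher (above 0) or lower (below 0); the middle and right panels show the percent whose second probe set, or whose SUP-B15 response, had the same sign, for genes past 2-fold (dark) and under 2-fold (light). The share with the same sign in SUP-B15 stood at 50.9%, 79.5% and 88.2% in the 3 groups, while the share past 2-fold went from 18.6% to 3.20% and 3.17%.

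A stricter reading asks that every probe set of a gene that passed the filter be past 2-fold. Of the 2329 genes with at least 2 such probe sets, 20 were higher by this rule (0.859%) and 16 lower (0.687%). The higher genes were led by BCL6 and CD24, and the lower ones by DUSP6, HBEGF and VCAN. These leading genes are described below. Several other higher genes were dim, such as TTC38 (56.8 and 215.2) and EVA1B (37.5 and 147.3). TTC38 also had a probe set under the filter that read −1.79. With the 75th percentile filter the counts were 8 and 6.

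**Figure D3:**
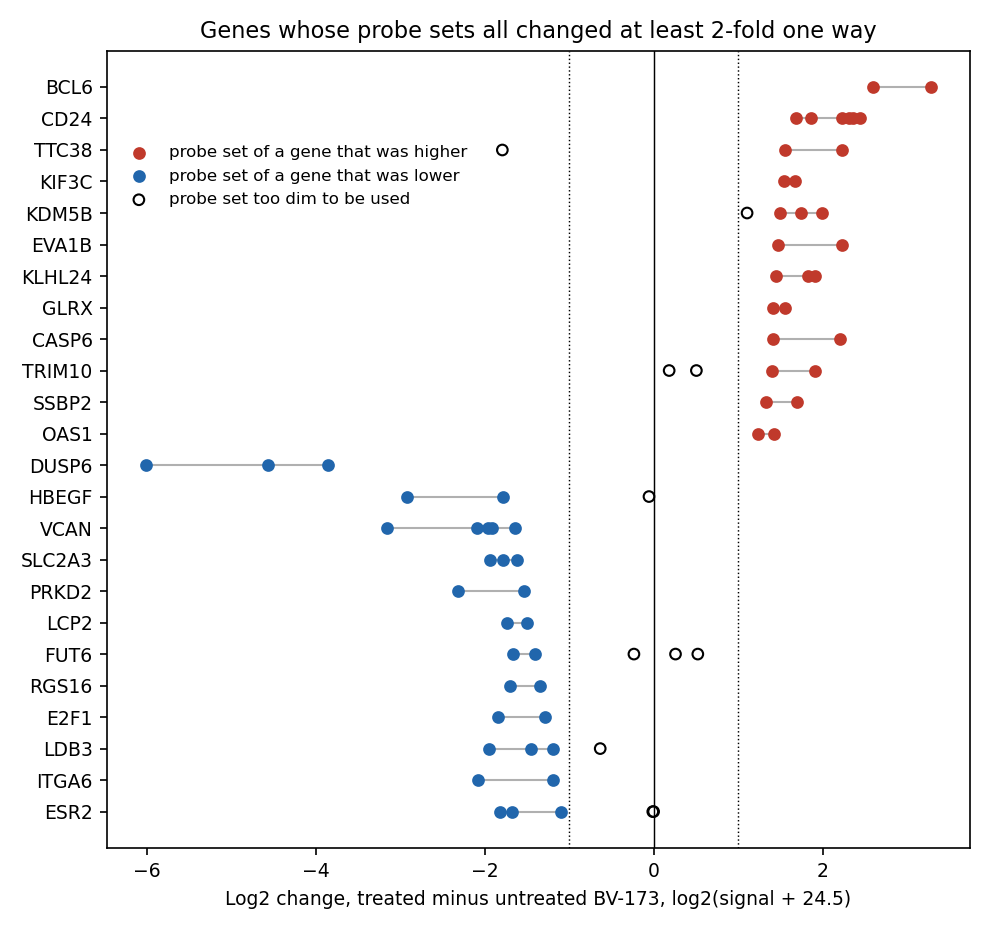
Log2 change, treated minus untreated BV-173, of each probe set (points) of the 12 higher and 12 lower genes ranked first by their smallest change among genes whose probe sets all passed 2-fold. Filled points are probe sets that passed the filter and open points are those too dim to be used; dotted lines mark 2-fold. The 3 probe sets of DUSP6 lie at −6.00, −4.56 and −3.86, and the 6 of CD24 between 1.68 and 2.44.

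Several genes that restrain ERK signalling were lower after STI571. DUSP6, a phosphatase that inactivates ERK, had signals of 3263 and 26.8 with its brightest probe set, a change of −6.00 or 64.1-fold, the largest of all 7240 genes. Its other probe sets read 1397 and 35.8 (−4.56) and 527.7 and 13.6 (−3.86). All 3 readings put the treated culture near or below the added 24.5, so the sizes are set in part by that value. ETV5, a transcription factor induced by ERK, had signals of 567.3 and 113.7 (−2.10), with changes of −2.09 and −0.84 for its other probe sets. SPRED2, an inhibitor of RAF activation, went from 490.8 to 143.6 (−1.62), and SPRY4 and SPRY2, which block RAS activation, from 188.0 to 25.5 (−2.09) and from 573.8 to 313.8 (−0.82). MAFF, a small MAF factor of the early response, was at 934.7 and 369.2 (−1.28), while its second probe set changed by −0.26. JUN, a subunit of the AP-1 factor, was at 180.5 and 51.9 (−1.42). DUSP1, a phosphatase of JNK and p38 as well as ERK, went the other way, from 258.3 to 1041 (1.91). These genes stand in a list that holds ERK feedback genes and immediate early genes together. Of its 16 genes that passed the filter, 6 were at least 2-fold lower and 1 higher, beside 4.19% and 6.13% of all genes. The list's median change was −0.73 against 0.04 over all genes. In SUP-B15 its median was −0.32, and 9 of the 16 had the same sign there.

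HBEGF, a membrane-bound growth factor of the EGF family and itself induced by ERK, was lower by both of its probe sets. They read 534.1 and 49.5 (−2.92) and 344.5 and 83.1 (−1.78). PRKD2, a diacylglycerol-dependent kinase, had signals of 673.3 and 216.0 (−1.54) and of 326.5 and 45.8 (−2.32). LCP2, the adaptor SLP-76 of antigen receptor signalling, had signals of 400.9 and 125.7 (−1.50) and of 216.1 and 47.9 (−1.73). RGS16, which shortens G protein signals, was lower by both probe sets (−1.34 and −1.70).

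The STAT5 list was led by CISH, which encodes a feedback inhibitor of cytokine receptors and is a direct STAT5 target. Its signals were 918.3 and 127.6, a change of −2.63 or 6.2-fold, from 1 probe set of a class (suffix _x_at) that can also read similar transcripts. In SUP-B15 the same probe set started far lower, at 157.7, and read 111.8 after treatment (−0.42). The stretch of the CISH promoter that holds 4 matches to TTCNNNGAA, the letters of the STAT5 motif, is shown because no other gene of the list had more than 1. It lies at chr3:50611858-50612024 of GRCh38.p14 (RefSeq), minus strand, from 250 to 84 bases before the gene's start, with the matches in capitals.
CISH: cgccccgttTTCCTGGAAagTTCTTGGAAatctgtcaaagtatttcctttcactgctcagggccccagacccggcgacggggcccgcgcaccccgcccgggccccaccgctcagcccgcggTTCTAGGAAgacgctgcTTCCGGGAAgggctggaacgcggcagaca
The motif was searched on both strands (its letters read the same on each) in the 250 bases before and 50 after each start. It occurs in 7.66% of 35116 such windows and in 8.46% of the compared genes with a window. Of the 12 list genes with a window, 2 held it, CISH and LTB. A match is a description of the letters and not a binding site.

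PIM1, a survival kinase, had signals of 396.7 and 86.6 (−1.92). CCND2, a D-type cyclin, was at 1747 and 669.2 (−1.35), and its other probe sets changed by −1.02 and −0.88. BCL2L1, which encodes BCL-XL, was at 392.4 and 173.0 (−1.08), but its other probe sets read 121.6 and 121.5, and 84.3 and 134.5 (0.55). SOCS2, a further feedback inhibitor, stayed bright at 18269 and 13283 (−0.46). GADD45G, the 1 gene of the list at least 2-fold higher, was at 10.9 and 112.6 (1.95), at the edge of the filter. In all 4 of 15 genes were at least 2-fold lower and 1 higher, beside 4.19% and 6.13% of all genes. Of the 4 lower genes 2 were bright. The list's median was −0.25, and in SUP-B15 it was −0.03. RNA of the kinase's own loci stayed under 2-fold: ABL1 had signals of 539.3 and 862.1 (0.65) and BCR of 369.5 and 528.7 (0.49).

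Genes known to be induced by FOXO factors or to feed back on PI3K were higher where they changed by 2-fold. BCL6, a transcriptional repressor of B cells, was the gene with the largest increase of all, with signals of 530.7 and 5357, a change of 3.28 or 9.69-fold. Its second probe set read 30.6 and 309.7 (2.60). INSR, the insulin receptor, was at 519.3 and 1423 (1.41), and KLF2, a factor of lymphocyte quiescence, at 49.5 and 160.3 (1.32). PIK3R1, the regulatory subunit of PI3K, which stands in the adaptor list and not in this one, had changes of 1.0, 0.87 and 1.11 with its 3 probe sets. Values for IL7R were 1406 and 2527 (0.83), for the PI3K inhibitor PIK3IP1 236.6 and 443.8 (0.84), and for the CDK inhibitor CDKN1B 2537 and 3395 (0.42). BNIP3, which acts in mitophagy, went the other way with both probe sets (−0.86 and −0.97). Of 21 genes, 5 were at least 2-fold higher, among them RAG1 and RAG2, which also stand in the list of V(D)J recombination, and 0 lower; the median was 0.42.

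Several lists of early B cell development held bright increases. Surrogate light chain genes were higher: VPREB1 had signals of 391.0 and 1643 (2.01), VPREB3, a related chaperone, of 2009 and 5158 (1.35) and IGLL1 of 11962 and 18311 (0.61). CD79B, which carries the signal of the pre-B cell receptor into the cell, was at 631.3 and 2048 (1.66), while its partner CD79A was at 897.3 and 502.3 (−0.81). BLNK, the adaptor downstream of that receptor, was at 2169 and 6964 (1.67). In all, 4 of 12 genes of the receptor list were at least 2-fold higher and 0 lower, with a median of 0.49, and all 4 were bright.

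Among enzymes that cut and join antigen receptor genes, those made by lymphocyte precursors were higher. RAG1 and RAG2, the recombinase, had signals of 226.4 and 904.0 (1.89) and of 163.1 and 468.1 (1.39), and DNTT, the polymerase that adds untemplated bases, of 3646 and 11815 (1.69). The general end-joining factors of the list were lower or near 0, with −0.54 and −0.60 for both probe sets of PRKDC and −0.19 for XRCC6. Hence 3 of 11 genes were at least 2-fold higher and 0 lower, and the median was 0.12, which became −0.02 with a common median. Immunoglobulin transcripts gave readings that differed among probe sets. IGHM had signals of 3517 and 4790 (0.44), with further readings of 0.77, 0.25 and −0.42. IGKC had signals of 459.5 and 950.1 (1.01), with further readings of 0.08 and 1.88. Of 9 genes, 2 were at least 2-fold higher and 0 lower.

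Transcription factors of the B lineage were higher in 21 of the 24 measured, by at least 2-fold in 7, with 1 at least 2-fold lower and a median of 0.80. MYB, needed for the survival of B cell precursors, had signals of 2410 and 9946 (2.03) and a second, dim reading of 87.9 and 204.1 (1.02). BACH2, a repressor that works with BCL6, was at 113.5 and 533.3 (2.02). IKZF1, which encodes Ikaros, was at 503.3 and 1406 (1.44), at 211.1 and 470.2 (1.07) and at 32.1 and 196.7 (1.97), while a probe set under the filter read −0.91. ERG was at 357.5 and 1044 (1.48), but its second probe set read 135.6 and 93.5 (−0.44). SPI1 (53 and 223.8) and SPIB (40.4 and 119.1), which encode the related factors PU.1 and Spi-B, were higher by 1.68 and 1.15 from dim levels, and POU2F2, which encodes Oct-2, was lower (154.2 and 49.4, −1.27). PAX5, the factor that commits cells to the lineage, stayed at 2687 and 2974 (0.14). E proteins moved by less than 2-fold with their brightest probe sets, with changes of 0.77 for TCF3, 0.89 for TCF4 and 0.84 for TCF12. In TCF3 the 12 probe sets ranged from 0.17 to 2.35. LEF1 and SOX4, which are not E proteins, changed by 0.65 and 0.83.

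Among surface antigens, CD24, a glycoprotein of immature B cells, was higher by all 6 of its probe sets. The brightest had signals of 3287 and 15567 (2.24), and the others changed by 1.68 to 2.44. All 6 are of classes that can read more than 1 transcript (suffix _s_at or _x_at), and in SUP-B15, where the brightest started at 26781, it changed by 0.15. FLT3, a receptor kinase of progenitors, was at 1588 and 3716 (1.21), whereas CD53, a tetraspanin, was lower (4843 and 2163, −1.15). Of 12 antigens measured, 2 were at least 2-fold higher and 1 lower. In the marker list of B cell precursors, 7 of 15 genes were at least 2-fold higher, beside 6.13% of all genes, and 0 lower. The median was 0.83. These 7 (CD24, CD79B, VPREB1, VPREB3, DNTT, RAG1 and RAG2) were already counted in the lists above, so the count is not a separate observation. The lists of germinal centre and plasma cell markers do not give the same counts: 2 of 7 (BCL6 and the dim SPIB) and 0 of 5 genes were at least 2-fold higher, and the bright plasma cell genes JCHAIN (28862 and 21819), XBP1 (4370 and 2877) and FKBP11 (4387 and 2489) had changes of −0.40, −0.60 and −0.81.

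DNA replication genes were lower as a group while mitotic genes were not. Of 38 replication and G1/S genes, 36 were lower and 9 of them by at least 2-fold, with 0 at least 2-fold higher and a median of −0.61. CDC45, which activates the replicative helicase, had signals of 662.5 and 146.2 (−2.01). The GINS complex, its partner, was lower in all 4 subunits, 3 of them by at least 2-fold: GINS2 at 1329 and 465.0 (−1.47), GINS1 at 2939 and 1328 (−1.13) and GINS4 at 382.0 and 26.7 (−2.99, against 0.08 in SUP-B15). GINS3 was at 595.5 and 402.4 (−0.54). The helicase subunit MCM4 was at 5850 and 2744 (−1.09) and its other 3 probe sets lay between −0.97 and −0.65. E2F1, the factor that drives this programme, had signals of 198.4 and 66.6 (−1.29) and of 235.5 and 47.9 (−1.84), and CCNE2, the E-type cyclin, of 708.2 and 325.8 (−1.06) and of 259.7 and 87.7 (−1.34). The uracil glycosylase UNG was at 490.6 and 225.1 (−1.05). By contrast, 0 of 34 mitotic genes were past 2-fold, with a median of 0.02: MKI67 was at 314.6 and 317.7 (0.01), its other probe sets lay between −0.31 and 0.12, and the largest change was that of FOXM1 (199.8 and 303.4, 0.55). With a common median the mitotic list's median was −0.12.

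The E2F motif in 4 spellings (TTTCCCGC, TTTCGCGC, TTTGCCGC and TTTGGCGC, either strand) occurs in 3.31% of the 35116 promoter windows and in 7.34% of the compared genes with a window. It occurs in 18 of 34 replication genes and in 3 of 28 mitotic genes. The median change was −0.73 for the replication genes with a match and −0.48 for those without. Stretches of 3 promoters are shown, since these genes were lower and differ in the number of matches, which stand in capitals; the sequences are from RefSeq, GRCh38.p14, and overlapping matches run together. They lie at chr20:33686378-33686438 (minus strand, 53 bases before to 8 after the start of E2F1), chr16:85688958-85689005 (minus strand, 51 to 4 bases before the start of GINS2) and chr2:135876502-135876615 (minus strand, 172 to 59 bases before the start of MCM6).
E2F1: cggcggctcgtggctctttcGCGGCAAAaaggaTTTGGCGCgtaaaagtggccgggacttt
GINS2: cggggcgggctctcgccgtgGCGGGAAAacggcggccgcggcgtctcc
MCM6: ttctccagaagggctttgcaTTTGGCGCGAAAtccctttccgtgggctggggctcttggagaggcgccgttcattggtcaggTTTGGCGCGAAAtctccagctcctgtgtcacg
E2F1 holds 2 matches, GINS2 1 and MCM6 4, and their changes were −1.29, −1.47 and −0.66 (4964 and 3143 for MCM6). The gene with the most matches had the smallest of these changes.

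Regulators of G1, a list that shares E2F1 with the replication list, had changes below 0 in 13 of 16. Of these genes, 3 were at least 2-fold lower: CCND2, E2F1 and CCNE2, all described above. The 1 at least 2-fold higher was CDKN1C, which encodes a CDK inhibitor. It was at 4.5 and 113.8 (2.25), passing the filter only on the treated array, while a probe set under the filter read −1.28. The list's median was −0.26. Of 28 repair genes, 2 were at least 2-fold lower and 0 higher, beside 4.19% of all genes lower, with a median of −0.09. They were UNG, which also stands in the replication list, and the exonuclease EXO1 (529.9 and 243.5, −1.05).

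Of the genes of endoplasmic reticulum stress, 2 of 16 were at least 2-fold lower, and both were just past that line. HSPA5, the master chaperone BiP, had signals of 3940 and 1952 (−1.0), and CRELD2, a secreted stress factor, of 1716 and 843.9 (−1.0). Others stayed under 2-fold: SDF2L1, a BiP cofactor, was at 1342 and 745.8 (−0.83), MANF, a trophic factor held by BiP, at 2668 and 1616 (−0.71), and PDIA3, a disulfide isomerase, at 5160 and 3307 (−0.64). In all 14 of the 16 had a change below 0, and the median was −0.42; in SUP-B15 it was 0.01, with −0.22 for HSPA5 and 0.08 for CRELD2. The difference between the lines was not tested. P4HB, a further disulfide isomerase outside the list and named after its values were seen, was at 4122 and 1119 (−1.86) with a second reading of −0.56, and in SUP-B15 at 3315 and 3404 (0.04).

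Promoters of this list often hold the endoplasmic reticulum stress element, read here as CCAAT, 9 bases and CCACG on either strand. It occurs in 0.0769% of all windows and 0.182% of the compared genes with a window, but in 7 of 15 genes of the list, whose chaperones are its textbook carriers. The median change was −0.60 with and −0.24 without a match. Sequences of the 3 genes below are from RefSeq, GRCh38.p14, with the element in capitals: chr9:125241371-125241429, minus strand, 86 to 28 bases before the start of HSPA5; chr22:49918534-49918592, plus strand, 100 to 42 bases before that of CRELD2; and chr12:103930196-103930359, plus strand, 214 to 51 bases before that of HSP90B1.
HSPA5: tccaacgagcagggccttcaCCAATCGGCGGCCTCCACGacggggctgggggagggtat
CRELD2: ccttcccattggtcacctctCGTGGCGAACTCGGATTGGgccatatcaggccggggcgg
HSP90B1: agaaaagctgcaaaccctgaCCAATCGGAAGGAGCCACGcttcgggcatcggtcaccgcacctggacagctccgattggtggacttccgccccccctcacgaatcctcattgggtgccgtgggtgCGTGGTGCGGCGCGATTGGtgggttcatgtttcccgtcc
HSP90B1, the chaperone GRP94, holds 2 elements in opposite orientation. Its signals were 3823 and 2479 (−0.62), and its second probe set read −0.11.

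MYC, a transcription factor of growth, stayed at 25862 and 26045 (0.01), and 0 of the 8 measured genes of its network were past 2-fold (median −0.08). In SUP-B15 MYC had a change of −1.54. A list of ribosome biogenesis genes and other MYC targets was nevertheless lower in 26 of 28, with a median of −0.43, close to the −0.45 of SUP-B15. In this list 0 genes were past 2-fold, and some, such as ODC1, act outside ribosome assembly. PA2G4, which acts in ribosome assembly, was at 4484 and 2430 (−0.88, second reading −0.41), NIP7 at 2142 and 1291 (−0.72), NME1 at 10396 and 6418 (−0.69) and ODC1, the first enzyme of polyamine synthesis, at 12122 and 7664 (−0.66). Nucleotide and folate enzymes were lower in 17 of 21 (median −0.32), such as PFAS of purine synthesis (2311 and 1419, −0.69) and UMPS of pyrimidine synthesis (635.2 and 388.4, −0.68, second reading −0.18). Messages of cytosolic ribosomal proteins were higher in 27 of 28, by at most 0.31, with a median of 0.16 that quantile normalization turned to −0.03.

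Glycolytic genes were lower in 17 of 22, with a median of −0.29. The neuronal-type glucose transporter SLC2A3 was the 1 gene past 2-fold, with signals of 778.4 and 185.6 (−1.93), 505.5 and 129.7 (−1.78) and 240.4 and 62.0 (−1.61). LDHA, lactate dehydrogenase, was at 24417 and 16586 (−0.56), and PFKL, a phosphofructokinase subunit, was higher (1413 and 2648, 0.89, second reading 0.93). Sterol and fatty acid synthesis was lower in 16 of 19 (median −0.27), led by HMGCS1, an early enzyme of the cholesterol pathway, at 896.1 and 376.8 (−1.20, second reading −0.47), MSMO1 at 2423 and 1209 (−0.99) and the desaturase SCD at 3113 and 1592 (−0.96, further readings of −1.11 and −1.13). A list of 9 sterol efflux genes and targets of the nuclear receptor LXR had a median of 0.48. In it 3 were at least 2-fold higher (CYP27A1, NR1H3 and LPCAT3) and 1 lower (PLTP), all 4 of them dim. ABCG1 stayed under 2-fold (62.3 and 133.1, 0.86). The respiratory chain (0 of 37 past 2-fold, median −0.07), proteasome (0 of 26, 0.00) and heat shock proteins (0 of 20, −0.13) stayed close to the median of all genes, although cytochrome c (CYCS) was at 13020 and 7461 (−0.80). Amino acid stress genes had a median of −0.20, with 1 of 21, the dim NUPR1, at least 2-fold higher.

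**Figure D4:**
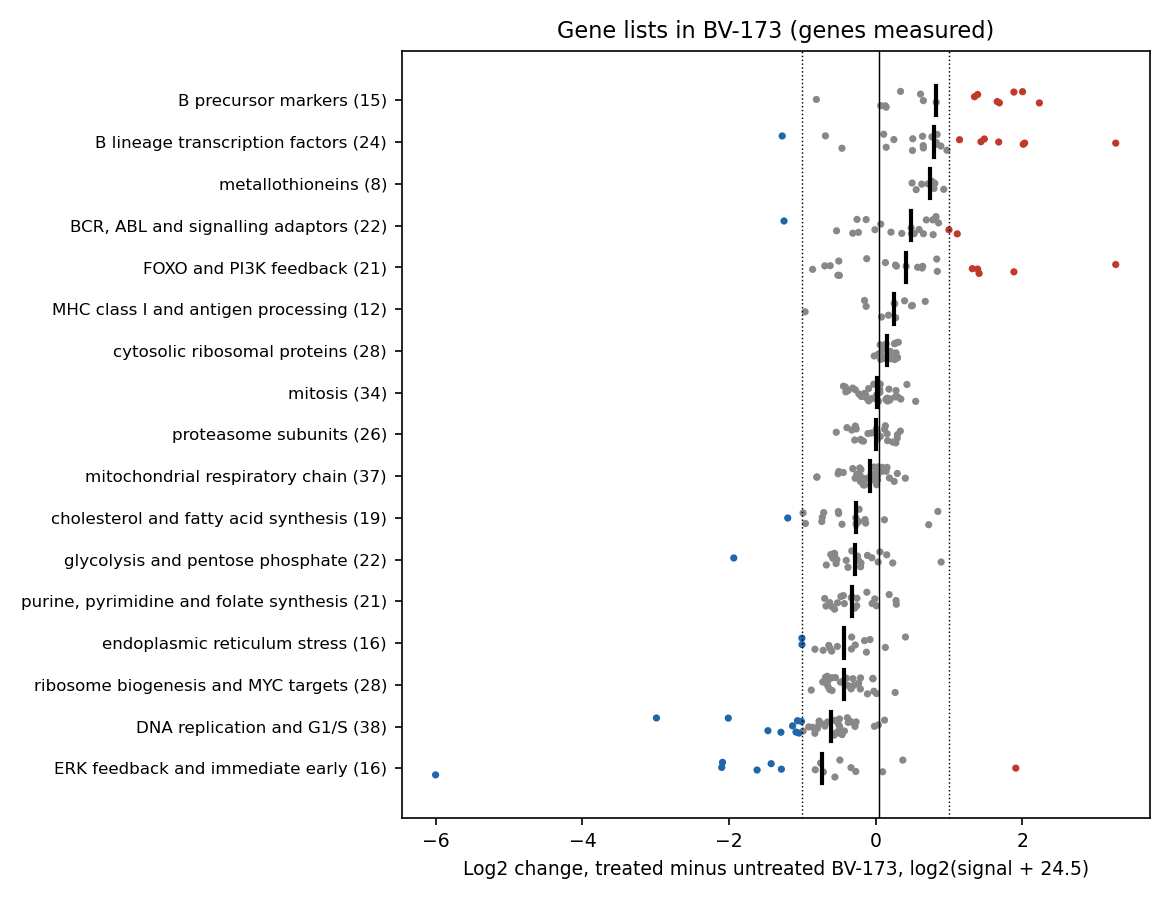
Log2 change, treated minus untreated BV-173, of each measured gene (points, red or blue where past 2-fold) in 17 gene lists, ordered by their median (thick black bars), with the number of genes in parentheses. The thin line marks the median of all 7240 genes (0.04) and dotted lines mark 2-fold. Replication genes (median −0.61) and the list of ribosome biogenesis and MYC targets (−0.43) lie mostly left of the line, B lineage factors (0.80) and metallothioneins (0.74) mostly right of it.

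Metallothioneins, small metal-binding proteins, and 2 genes of zinc handling, MTF1 and SLC30A1, formed a list that was higher in 8 of 8, with a median of 0.74 and 0 past 2-fold; MT1G was at 825.0 and 1594 (0.93) and MT2A at 6401 and 11230 (0.81). The metallothionein genes are near-identical copies, so their probe sets may read each other's RNA and are not separate observations. Among histone genes, 4 of 17 were at least 2-fold higher and 0 lower (median 0.33): H2AC6 at 234.2 and 825.1 (1.72), H2BC12 at 280.1 and 778.0 (1.40), the linker histone H1-10 at 552.1 and 1179 (1.06) and the dim H2BC21 at 42.2 and 158.0 (1.45). H1-3, another linker histone, was at 671.5 and 343.6 (−0.92). Lysosome and autophagy genes were higher in 21 of 26, with a median of 0.22; the 2 past 2-fold, ULK1 and WIPI1, were dim. In the list of Kruppel-like and quiescence genes, 2 of 18 were at least 2-fold higher (KLF2 and TSC22D1) and 0 at least 2-fold lower, although 11 of the 18 had a change below 0 and the median was −0.18. BTG1, an inhibitor of proliferation, was at 6644 and 3752 (−0.82, second reading −1.05), and ZFP36, which destabilises cytokine RNA, at 618.6 and 324.5 (−0.88); TSC22D1 was at 560.6 and 1350 (1.23).

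Adhesion molecules changed in both directions. ITGB2, the common chain of leukocyte integrins, had signals of 1243 and 340.4 (−1.80), and ITGA6, a laminin receptor chain, of 538.6 and 108.8 (−2.08) and of 220.8 and 83.0 (−1.19). ICAM2, a ligand of ITGB2 integrins, was higher at 782.7 and 2621 (1.71) and 599.3 and 1213 (0.99), as was CD58, the ligand of CD2, at 667.3 and 1693 (1.31) with 4 probe sets between 0.76 and 1.47. VCAN, the matrix proteoglycan versican, was lower by all 5 probe sets, from 1009 to 250.9 with the brightest (−1.91) and by −1.64 to −3.15 over the 5. In SUP-B15 it was dim on both arrays (32.0 and 36.8). VCAN is not in the list of 19 genes. Of these 19, 4 were at least 2-fold lower (ITGB2, ITGA6 and the dim EMP1 and ICAM1) and 2 higher, beside 4.19% and 6.13% of all genes. The list's median of 0.11 became −0.04 with a common median.

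The list of chemotactic receptors and G protein regulators was likewise mixed (median 0.01, and −0.14 with a common median). In it 2 of 11 were at least 2-fold higher and 3 lower, beside 6.13% and 4.19% of all genes. Only 1 of the higher and 1 of the lower genes were bright. Of the 3 lower genes only LPAR6 encodes a receptor. The others were RGS16, given above, and the G protein subunit GNAI1 (168.3 and 68.0, −1.06). LPAR6, a lysophosphatidic acid receptor, went from 11157 to 2193 (−2.33, −1.62 in SUP-B15). PTGER4, the prostaglandin E2 receptor EP4, was higher at 2539 and 5605 (1.13) and 68.7 and 245.6 (1.54). GPR18, a G protein-coupled receptor of lymphocytes, was at 4.9 and 227.9 (3.10). It was dim and passed the filter only on the treated array. CXCR4, the receptor that holds precursors in the marrow, was at 9635 and 17215 (0.84), with its 3 probe sets between 0.84 and 1.29. Cytokine receptors and Janus kinases gave 3 of 18 at least 2-fold higher and 0 lower (median 0.16), of which FLT3 was bright; IL21R was at 660.8 and 318.5 (−1.0, just under 2-fold).

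The TNF family and NF-kB lists held mostly dim genes. TNF itself was at 336.7 and 8.4 (−3.46). TNFRSF1B, its second receptor and the 1 bright changed gene of the family, was at 565.3 and 229.6 (−1.21), and LTB, lymphotoxin beta, at 524.6 and 264.5 (−0.93). In the family 4 of 16 genes were at least 2-fold higher and 3 lower (median 0.05, −0.07 with a common median), beside 6.13% and 4.19% of all genes and 18.6% in both directions of genes under the 75th percentile. All but TNFRSF1B of these 7 were under that percentile; in the NF-kB list 1 of 15 was higher and 2 lower (median 0.14), with NFKBIA, the main inhibitor of NF-kB, at 917.2 and 1548 (0.74). Interferon response genes had a median of 0.23, and 1 of 22 was at least 2-fold higher, beside 6.13% of all genes. It was the dim OAS1, an antiviral synthetase, with 75.1 and 209.5 (1.23) and 38.9 and 145.3 (1.42). In SUP-B15 these probe sets changed by 0.05 and −0.09. MHC class I genes were higher in 9 of 12 and 0 were past 2-fold (median 0.26, but 0.09 after quantile normalization and −0.03 with gene-specific probe sets alone), with HLA-E at 7272 and 11649 (0.68); MHC class II genes had a median of −0.02, and 2 of 14, RFXAP and HLA-DOB, were at least 2-fold lower and dim.

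Signalling adaptors that act with BCR-ABL1 tended upward, with 15 of 22 higher, 2 of them by at least 2-fold, 1 at least 2-fold lower, and a median of 0.49 (0.05 in SUP-B15). CBLB, a ubiquitin ligase of activated kinases, was at 208.7 and 480.5 (1.11), GAB2, a scaffold of PI3K, at 647.4 and 1166 (0.83) and GRB2, the link to RAS, at 310.7 and 553.4 (0.79). Of the 7 adaptors below 0, PTPN6, the phosphatase SHP-1, was the 1 past 2-fold, at 858.7 and 347.2 (−1.25). A second phosphatase, the receptor-type PTPRK, was higher at 565.2 and 2611 (2.16, 1.47 in SUP-B15). Among 13 tyrosine phosphatases these were the 2 past 2-fold, and the median was 0.29 (−0.15 with the 75th percentile filter).

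Genes of cell death were mostly under 2-fold. In the BCL2 family 1 of 12 was at least 2-fold lower (BCL2L1, above) and 0 higher, with a median of −0.02; MCL1, an anti-apoptotic member, was at 1392 and 1301 (−0.10), and BCL2 at 1148 and 955.9 (−0.26, second reading 0.80). Among caspases and death receptors, CASP6, an executioner caspase, was higher by both probe sets, 63.6 and 209.6 (1.41) and 29.7 and 225.2 (2.20). In all, 2 of 14 genes were at least 2-fold higher, CASP6 and CASP2 (58.2 and 147.9, 1.06), and 0 lower (median 0.19). Both were under the 75th percentile, where 376 of 3352 genes were at least 2-fold higher, beside 6.13% of all genes. The other probe sets of CASP2 were under the filter. Of 11 p53 targets, MDM2, the ligase that degrades p53, was the 1 past 2-fold, at 184.4 and 465.3 (1.23), with its 4 probe sets between 1.16 and 2.44; CDKN1A was at 760.1 and 563.1 (−0.42), and the median was −0.12 (0.24 with gene-specific probe sets alone).

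Further bright changes fell in none of the lists. GOLGA7, a partner of a palmitoyl transferase with 1 probe set, was at 12746 and 2271 (−2.48). GLDC, the glycine decarboxylase, was at 1080 and 210.5 (−2.23), and the small GTPase RAB20 at 1278 and 368.1 (−1.73). GSDME, a pore-forming gasdermin, was at 552.4 and 157.4 (−1.67), and WSB2, a ubiquitin ligase adaptor, at 1527 and 504.9 (−1.55). In SUP-B15, GOLGA7 read 1754 and 2508 (0.51), both near the signal of the treated BV-173 array. Other genes were higher by every probe set. KDM5B, a demethylase of histone H3, was at 522.8 and 2146 (1.99), with other changes of 1.5 and 1.74. GLRX, a glutaredoxin, was at 3735 and 10013 (1.42) and at 1348 and 4023 (1.56). SSBP2, a transcriptional cofactor, was at 3162 and 7982 (1.33) and at 1910 and 6226 (1.69). All 3 were bright on the treated array. KLHL24, a ubiquitin ligase adaptor, was at 393.5 and 1116 (1.45), with other changes of 1.91 and 1.83. LDB3, a PDZ and LIM domain protein, was lower at 1578 and 677.0 (−1.19), with other changes of −1.45 and −1.95.

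The SUP-B15 arrays share no sample with the BV-173 arrays and give a second reading of the same treatment. Of the 124 bright changed genes, 103 had the same sign in SUP-B15 and 28 were also past 2-fold there. DUSP6 (−6.00 in BV-173 and −5.57 in SUP-B15), GLDC (−2.23 and −2.14), BCL6 (3.28 and 1.86) and H2AC6 (1.72 and 2.14) were among these. Several B lineage genes that were higher in BV-173 started from a lower signal there than in SUP-B15 and changed less in SUP-B15. VPREB1 was at 391.0 and 1643 in BV-173 and at 3010 and 3667 in SUP-B15, BLNK at 2169 and 6964 against 12281 and 16793, and DNTT at 3646 and 11815 against 22251 and 29317. For these genes the treated BV-173 signal was still below that of untreated SUP-B15. Each line is 1 pair of arrays, so a difference between the lines was not tested.

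**Figure D5:**
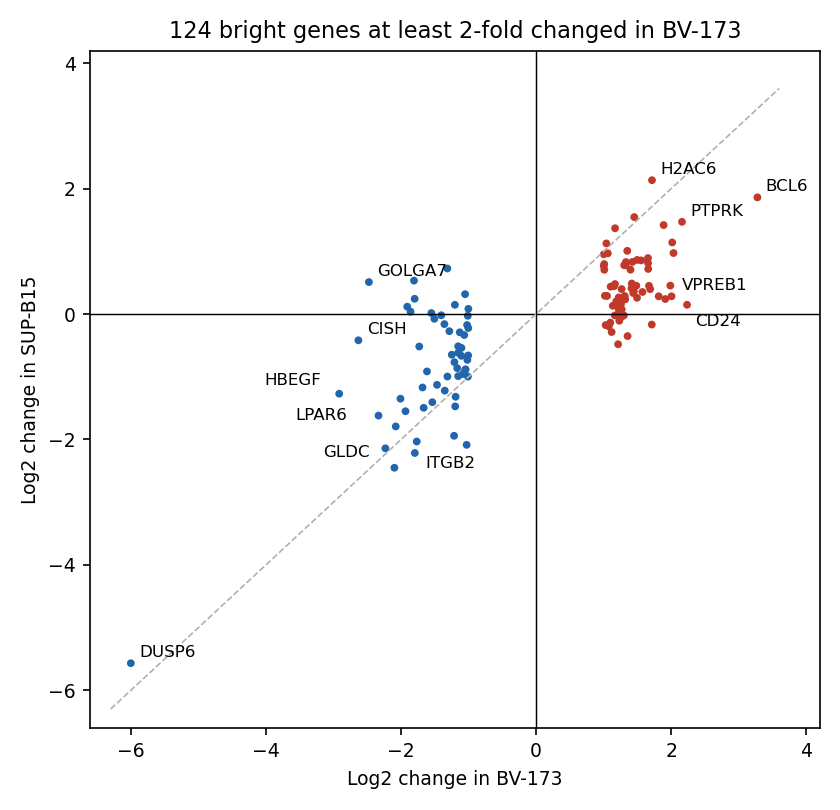
Log2 change in BV-173 (x axis) and in SUP-B15 (y axis), treated minus untreated, of the 124 genes at least 2-fold changed in BV-173 with a signal at the 75th percentile or above. Red points were higher and blue points lower in BV-173; the dashed line marks equal changes. The genes were chosen by their BV-173 change, and 103 of them lie in the quadrants of equal sign, with DUSP6 at −6.00 and −5.57.

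In 7 genes, probe sets that passed the filter were past 2-fold in opposite directions. They were TFR2, SIRT5, ALDH4A1, RARA, SPDEF, LMNA and CRTC1. TFR2, a transferrin receptor, read 124.3 and 15.6 with 1 probe set (−1.89) and 14.5 and 116.8 with another (1.86). In SIRT5, a mitochondrial deacylase, the brightest probe set read 647.1 and 545.7 (−0.24) while dim ones read 1.61 and −1.85. LMNA, which encodes the nuclear lamins, read 84.6 and 237.1 (1.26) and 96.6 and 19.5 (−1.46). In each of the 7 the opposed probe sets had a signal under the 75th percentile on both arrays, so their probe sets give no common direction.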

How the data were processed

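RNA of 4 cultures was hybridised to Affymetrix arrays, 1 per group. The deposited values are linear signal intensities, 1 for each probe set. GCOS 1.3 is named per the submitters' processing notes. The probe summary and the scaling target were not given in the sources used here. Probe sets were named from the platform annotation; 19052 of 19064 matched RefSeq, and sequences came from its promoter windows (GRCh38.p14).

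Signals were kept as deposited. The filter was the 50th percentile, the pseudocount 24.5, and a change counted from 2-fold. The analysis used Python 3.11.15, numpy 2.4.6 and pandas 2.3.3, and the counting was tested on simulated data. Genes were named by rule: the 12 largest each way with all probe sets past 2-fold, the 10 largest each way with 1 bright probe set, up to 5 per list, those with opposed probe sets, and a fixed set. Other genes were named after their values were seen. The members and the 47 lists were chosen with earlier results of these data known. Alternatives covered scaling, pseudocount, filter, probe set choice and threshold. The number of arrays limits the precision.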

Additional observations from a re-analysis of the deposited data

Results flagged for a closer look

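For 7 of the genes named by rule, the changes in both lines were past 2-fold in opposite directions. They were SPRY4 (log2 change −2.09 in BV-173 and 1.38 in SUP-B15), KLF2 (1.32 and −1.32), ICAM1 (−1.77 and 1.66), IL3RA (1.01 and −1.35), IL2RB (−1.77 and 1.23), CEBPE (1.06 and −1.12) and TFR2 (−1.89 and 1.21). The difference was not tested, since each response is 1 pair of arrays. For TFR2 the BV-173 value is that of its brightest probe set, and another reads 1.86, so its direction in BV-173 is not settled. All 7 had signals under the 75th percentile on both BV-173 arrays, where equal and opposite signs in SUP-B15 were equally frequent among genes past 2-fold in both lines (80 and 80).

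Outside the gene probe sets, the mean signal of the 18S ribosomal RNA controls was 2817 on the treated BV-173 array, against 1597, 1577 and 1513 on the others. Of 27 bacterial control probe sets that are not hybridisation controls, 4 were past 2-fold between both BV-173 arrays, with changes of −1.92 to 1.60; 1 for lys read 113.3 and 11.8. Among 696 bright probe sets with several gene symbols or none, 9 were at least 2-fold higher and 4 lower.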

How the results depend on the processing

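Counts are given as higher and then lower. The 444 and 303 genes past 2-fold became 173 and 108 with a pseudocount of 98, 1116 and 753 with no filter, and 68 and 57 with a 75th percentile filter. At 1.5-fold they were 1101 and 740, at 3-fold 176 and 133, and at 4-fold 88 and 61; gene-specific probe sets alone gave 293 higher genes. The genes with every probe set past 2-fold (20 and 16) became 10 and 7, 42 and 26, and 8 and 6 under the first 3 of these settings, 4 and 5 with gene-specific probe sets, and 89 and 57, 2 and 4, and 1 and 1 at the 3 thresholds. The second probe set moved the same way in 83.7% of changed genes, and in 56.3% with no filter, 100% with the 75th percentile filter, 74.4% with the filter over all 4 arrays, 91.3% with gene-specific probe sets, 72.9% at 1.5-fold and 100% at 4-fold. The sign in SUP-B15 was shared by 56.2%, and by 52.3% with no filter, 83.2% with the 75th percentile filter, and 60.4%, 50.2% and 46.3% at the 3 thresholds. Of 116 named genes past 2-fold, 106 stayed there after quantile normalization, 105 with a common median, 68 with a pseudocount of 98 and 94 with the median of all probe sets. Directions reversed for CASP2 (−0.060, median of all probe sets), EMP1 (0.31, no filter), TFR2 (1.86 with gene-specific probe sets, 1.15 with the median), ALDH4A1 (2.48 with a pseudocount of 1, 1.68 with gene-specific probe sets), RARA (−0.72 with the mean of probe sets, −0.32 with the median), LMNA (−0.10, mean) and CRTC1 (−0.22 with mean and median, −1.51 with gene-specific probe sets); the cause was not tested. List medians moved by less than the probe sets' median disagreement (0.30) in 446 instances and by more in 21. Among these, medians changed sign for p53 targets (0.24 with gene-specific probe sets), tyrosine phosphatases (−0.15) and the TNF family (−1.07, 2 genes), both with the 75th percentile filter, myeloid markers (0.09 with no filter, 0.67 with the filter over all 4 arrays) and erythroid markers (−0.41 with the mean of probe sets). The V(D)J list went to 0.85 and the chemotactic list to 0.46 with gene-specific probe sets, the ERK list to −0.36 and the pre-B cell receptor list to 0.19 with no filter. Smaller moves also turned the sign of several list medians. Among them were MHC class I (−0.03 with gene-specific probe sets) and cytokine receptors (−0.05 with the median of all probe sets). With that median, MHC class II went to 0.06, repair genes to 0.03 and adhesion genes to −0.07. With gene-specific probe sets the BCL2 family went to 0.05 and the MYC network to 0.04. No paired analysis was possible because each group holds 1 array. Leaving out a replicate was not possible either. Without detection calls, dim signals could not be set against a background.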
